A study of Homo sapiens with 10 samples.

Results

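The matrix metalloproteinases (MMP), the ADAMTS proteases and the tissue inhibitors of metalloproteinases (TIMP) were followed through melanoma cell lines before and after they became resistant to BRAF and MEK inhibition. Members were chosen by name, as every gene whose symbol is MMP, ADAMTS or TIMP followed by its number, which gave 47 of the 57955 genes in the files: 24 MMP, 19 ADAMTS and 4 TIMP genes. Of these, 35 had at least 20 counts in at least 1 library and are described here, namely 16 MMP, 16 ADAMTS and 3 TIMP genes. The other 12 stayed below that level in every library and are called silent: MMP10, MMP12, MMP13, MMP20, MMP21, MMP26, MMP27, MMP28, ADAMTS8, ADAMTS19, ADAMTS20 and TIMP4. Just under the limit were MMP13, with at most 12 counts, TIMP4 with 12.5 and ADAMTS20 with 14, and just over it MMP23A with 27.1, MMP11 with 39.2 and ADAMTS18 with 44.6. No count of MMP12 or MMP26 was seen in any library.

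mRNA was sequenced from 5 human melanoma lines, all with mutant BRAF and wild-type NRAS, and from the resistant line derived from each, as 1 library per line and state. The original lines WM983A, WM278 and WM902B came from primary tumours and WM983B and WM1617 from metastases, and they were grown without drug and are called sensitive. The resistant lines had been selected with encorafenib, a BRAF inhibitor, and binimetinib, a MEK inhibitor, from 1 nM up to 200 nM over 3 to 5 months, and they were still in 200 nM of the combination, so resistance and the presence of drug cannot be told apart. WM983A and WM983B came from 1 patient, and WM278 and WM1617 from another, so the 5 lines stand for 3 patients, and the lines, not repeat cultures, serve as the replicates of each state.

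MMPs are zinc-dependent endopeptidases, most of them secreted as inactive proenzymes and some anchored in the plasma membrane, that cut collagens, gelatin and other proteins of the extracellular matrix. ADAMTS proteases are secreted relatives with thrombospondin repeats, and they trim procollagen, cleave proteoglycans such as versican and aggrecan, or act on blood and microfibril proteins. TIMPs block the active site of MMPs, and TIMP3 also inhibits several ADAM and ADAMTS proteases. In melanoma these enzymes are studied for their part in invasion through basement membrane and dermal collagen. The BRAF-MEK-ERK pathway is known to raise the activity of the transcription factor AP-1, whose binding sites are a classical feature of the promoters of several MMP genes.

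Most MMPs that are regulated this way sit side by side on chromosome 11, and their proximal promoters are shown because 4 members had a letter match to the AP-1 motif. The windows are the 120 bases before the annotated start, from RefSeq (GRCh38.p14), read 5′ to 3′ on the gene's strand, which is the minus strand for all 5, with the AP-1 match TGANTCA in capitals. MMP7 lies at chr11:102530748-102530867, MMP20 at chr11:102625333-102625452, MMP8 at chr11:102724955-102725074, MMP10 at chr11:102780629-102780748 and ADAMTS12 at chr5:33891991-33892110.
MMP7: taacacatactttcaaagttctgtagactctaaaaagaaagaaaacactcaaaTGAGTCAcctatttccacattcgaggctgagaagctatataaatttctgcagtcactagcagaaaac
MMP10: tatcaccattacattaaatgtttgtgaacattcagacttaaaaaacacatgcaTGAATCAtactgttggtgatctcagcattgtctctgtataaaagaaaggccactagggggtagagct
MMP20: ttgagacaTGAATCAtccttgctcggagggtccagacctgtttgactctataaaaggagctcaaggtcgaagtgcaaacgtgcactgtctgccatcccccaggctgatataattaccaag
ADAMTS12: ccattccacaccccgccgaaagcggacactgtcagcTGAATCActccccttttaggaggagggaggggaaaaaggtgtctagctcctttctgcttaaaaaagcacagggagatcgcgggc
MMP8: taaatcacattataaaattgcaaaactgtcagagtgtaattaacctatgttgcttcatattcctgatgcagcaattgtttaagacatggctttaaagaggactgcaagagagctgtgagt

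The AP-1 match began 67 bases before the start in both MMP7 and MMP10, 112 bases before it in MMP20 and 84 bases before it in ADAMTS12. MMP8, the member with the widest range of levels, is printed for contrast and held no match in these letters. The search covered both strands from 250 bases before to 50 bases after the start. RefSeq windows were found for 27 of the 47 members, of which 4 (14.8%) held TGANTCA, against 7.71% of 35116 windows in the whole table. The second motif searched, AGGAAGT of the ETS-family site PEA3, was found in MMP7, 146 bases before the start, and in ADAMTS10, 55 bases before it, which is 7.41% of the members against 8.24% of all windows. A member counted once if any of its windows held the motif, whereas the background counts single windows, so the shares are not the same measure. A match is a string of letters and not a tested site. Of the 4 genes with the AP-1 letters, MMP10 and MMP20 were silent in all 10 libraries, MMP7 reached 20 counts only in the resistant WM983A library, and ADAMTS12 ranged from 0 to 341 normalized counts. The 20 members without a RefSeq window, in which neither motif was searched, were ADAMTS1, ADAMTS4, ADAMTS5, ADAMTS8, ADAMTS9, ADAMTS15, ADAMTS16, MMP1, MMP2, MMP3, MMP9, MMP12, MMP13, MMP16, MMP17, MMP19, MMP23A, MMP25, MMP28 and TIMP2.

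Library totals were 13693922 to 18033247 counts, so that 3 counts, the limit that a count of 0 allows, equal 0.166 to 0.219 CPM. Levels are given as normalized counts, the deposited count scaled to a common library size with edgeR's TMM factors, and lists of 5 values always follow the order WM983A, WM983B, WM278, WM1617, WM902B. Across genes, the resistant WM983A library stood apart. Its highest correlation was with the sensitive WM902B library (r = 0.817) and not with its own sensitive line (r = 0.783), whereas the other 4 resistant libraries were closest to their own line (r = 0.888 to 0.977). Genes are not independent replicates, so these correlations describe the libraries only. The cell type was checked with 8 melanocyte lineage markers, all of which had counts in every library, with sums of 53448, 30946, 6525, 68433 and 44164 normalized counts in the sensitive and 1365, 2137, 14068, 67335 and 3541 in the resistant libraries. Sums over 7 fibroblast markers were 1298, 1610, 343, 196 and 1489 in the sensitive and 99.7, 4475, 1427, 407 and 7205 in the resistant libraries, 5 leukocyte markers summed to at most 94.6, 4 endothelial markers to 3.24 to 814 and 5 epithelial markers to 342 to 8391, the highest in the resistant WM983A library. In edgeR's test described next, TYRP1 was the marker called lower (1 of 8 melanocyte markers tested) and PDGFRB the one called higher (1 of 6 fibroblast markers tested), and 0 of 1 epithelial marker was called. With the cell line block neither of the 2 was called and TYR was called lower. No leukocyte or endothelial marker had enough counts in enough libraries to be tested. The melanocyte marker sum was thus low in the resistant WM983A, WM983B and WM902B libraries. In resistant WM902B, MITF held 3348 of it, against 6114 in the sensitive line. With resistance MLANA was higher in WM983B (13.7 to 60.2) and TYRP1 in WM902B (11.2 to 22.7), while the other markers were lower in these lines. The part of these markers in the results on the proteases was not tested.

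**Figure D1:**
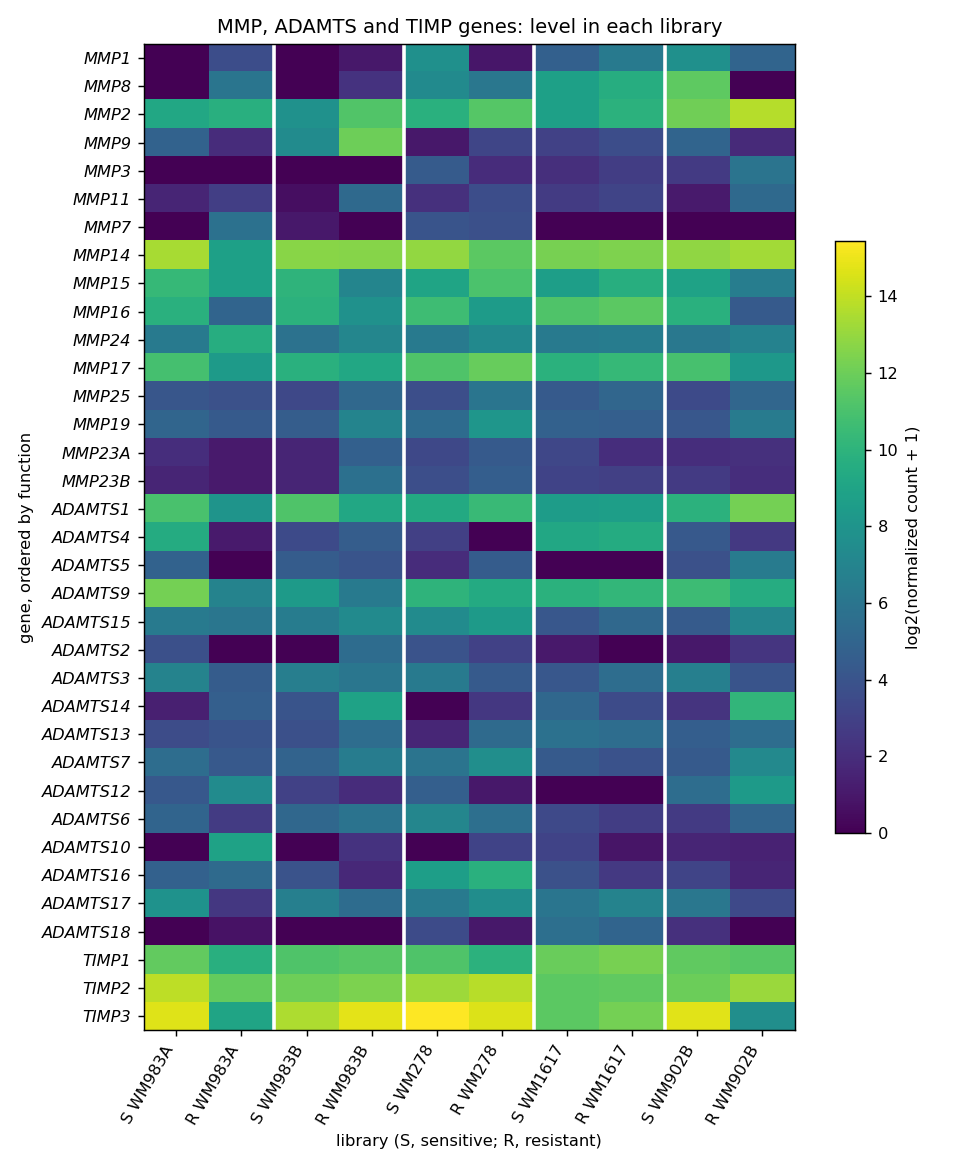
Level of each of the 35 described members (rows, ordered by function) in each of the 10 libraries (columns, sensitive beside resistant for each line), as log2 of the normalized count plus 1. TIMP1, TIMP2, TIMP3 and MMP14 are bright in nearly all columns, whereas MMP8, MMP9, ADAMTS4, ADAMTS10 and ADAMTS14 are bright in a few columns only.

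Whether resistance came with a shared change of these genes was asked by setting the 5 resistant against the 5 sensitive libraries. By edgeR's quasi-likelihood test, ADAMTS14, MMP19, MMP24 and MMP25 were higher and ADAMTS3 was lower in the resistant libraries, at an unadjusted p of at most 0.05 with a fold change of at least 2. Of the 27 members with enough counts to be tested, 4 (14.8%) were thus called higher, against 3.53% of all 17287 genes tested, and 1 (3.70%) was called lower, against 0.885%. With Benjamini-Hochberg adjustment over all genes, 0 members and 0 of 17287 genes passed in edgeR, the smallest adjusted p being 0.63, and 5 members had an unadjusted p of at most 0.05. DESeq2's Wald test passed 109 of 17287 genes (0.631%) at an adjusted p of at most 0.05. Among them was 1 member, ADAMTS14, at an adjusted p of 0.0457. For ADAMTS14 the adjusted p was 0.63 in edgeR, 0.466 with cell line as a block and 0.76 with patient as a block. The remaining 22 tested members were not called. Another 8 described members had enough counts in too few libraries for the test (ADAMTS2, ADAMTS10, ADAMTS18, MMP3, MMP7, MMP11, MMP23A and MMP23B). The median log2 fold change of the tested members was -0.04, beside 0.03 over all genes tested, while the median of its absolute size was 0.97 beside 0.30.

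Since every resistant line was grown out of the sensitive line of the same name, a second fit took the pairing by cell line into account as a block. It called ADAMTS14, ADAMTS15, MMP2, MMP24 and MMP25 higher (5 members, background 3.48%) and MMP16 lower (1 member, background 2.05%), again without adjustment, the smallest adjusted p over all genes being 0.462 in edgeR. ADAMTS14, MMP24 and MMP25 were called in both fits. MMP19 (adjusted p = 0.485 in the blocked edgeR fit) and ADAMTS3 (adjusted p = 0.494) lost their call with the block. Without WM1617, the line with the fewest genes at least 2-fold apart between its states, edgeR called 6 members higher (background 5.73%) and 4 lower (background 2.84%), the 4 being ADAMTS3, ADAMTS4, ADAMTS9 and MMP16, and 0 passed with adjustment.

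**Figure D2:**
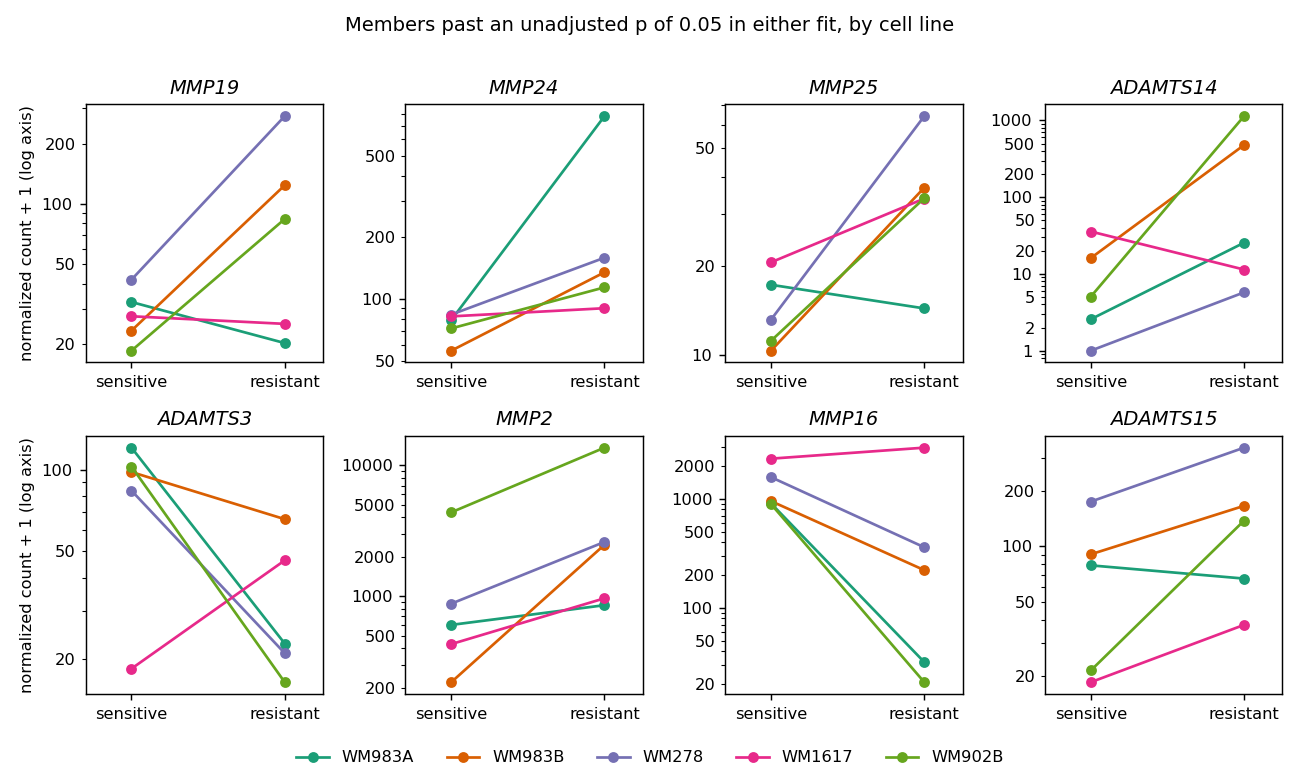
Normalized count plus 1 (log axis, with its own range in each panel) of the 8 members called in either fit, with a line joining the sensitive and the resistant library of each cell line. MMP2 and MMP24 lines climb in all 5 cell lines, whereas 4 of the 5 lines of MMP16 and ADAMTS3 go down and that of WM1617 goes up.

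MMP2, or gelatinase A, cleaves gelatin and the type IV collagen of basement membranes, and its level was higher in the resistant library of all 5 lines. It had 602, 219, 875, 429 and 4371 normalized counts in the sensitive and 852, 2470, 2595, 962 and 13649 in the resistant libraries. The resistant library exceeded its sensitive line 1.41-fold, 11.3-fold, 2.97-fold, 2.24-fold and 3.12-fold, the largest step being that of WM983B. Groups overlapped widely, because sensitive WM902B lay above the other sensitive and all but 1 resistant libraries. The log2 fold change was 1.66 ± 0.98 (SE, edgeR adjusted p = 0.764) and not called without the block, and 1.64 ± 0.43 (adjusted p = 0.462) and called with it. Without WM902B it was 1.71 and called, and with each other line left out in turn it was 1.52 to 1.74 and not called.

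MMP9, gelatinase B, cuts the same kind of substrates but had another pattern. It was at 28.5, 175, 0.954, 6.76 and 31.0 normalized counts in the sensitive libraries and at 2.92, 4128, 8.40, 11.5 and 2.57 in the resistant ones. A single library, resistant WM983B, held nearly all of the MMP9 transcript of the series, 23.6-fold above its sensitive line (95% counting interval 20.2 to 27.6). In WM983A and WM902B the resistant library was lower, by ratios of 9.76 (3.02 to 104) and 12.1 (3.89 to 132). MMP9 shares 18.4% of its exon bases with SLC12A5-AS1 on the other strand.

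Collagenases open the triple helix of fibrillar collagen, and MMP8, the neutrophil collagenase, had the widest range of all members. It counted 0, 0, 169, 438 and 3065 in the sensitive and 61.9, 3.82, 69.5, 782 and 0 in the resistant libraries, normalized. Resistant WM902B was at least 992-fold below its sensitive line, taken against 3 counts, and resistant WM983A at least 20.6-fold above its own. MMP1, the interstitial collagenase, had 0, 0, 211, 25.9 and 216 normalized counts in the sensitive and 11.3, 0.954, 0.932, 79.9 and 30.7 in the resistant libraries. It was lower in resistant WM278, by a ratio of 226 (38.6 to 8621) that rests on 1 remaining count, and in resistant WM902B by 7.04-fold (4.74 to 10.6). Both collagenases were thus lower in resistant WM278 and WM902B and higher in resistant WM983A and WM1617. Neither passed the test between the groups (MMP1 log2 fold change -1.85 ± 1.59, adjusted p = 0.85, and MMP8 -2.0, adjusted p = 0.872, in edgeR), and MMP8 turned to 0.60 without WM902B. MMP1 was -0.75 with the block, -0.96 without WM278 and -3.26 without WM1617, none of them called.

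MMP8 and MMP1 belong to the MMP cluster of chromosome 11, in which MMP7, MMP20, MMP27, MMP8, MMP10, MMP1, MMP3, MMP12 and MMP13 follow each other within 435225 bases. Raw counts summed over the 9 genes were 0, 1, 440, 433 and 3233 in the sensitive and 110, 5, 89, 1011 and 89 in the resistant libraries. The cluster was therefore nearly without transcript in the sensitive WM983A and WM983B libraries, the pair from 1 patient, and was transcribed in the WM278 and WM1617 pair and in WM902B. MMP8 made up 93.3% of the cluster's counts in sensitive WM902B and 0% in its resistant line. There MMP3, stromelysin 1, which cleaves proteoglycans and activates other MMPs, went the other way, from 5.08 to 59.4 normalized counts (11.7-fold, interval 4.76 to 37.6), while MMP1 kept 30.7. MMP7, or matrilysin, had 52.5 normalized counts in resistant WM983A, against 0 in its sensitive line, and at most 15.2 in any other library. Neighbouring genes of the cluster thus differed in direction within 1 line.

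**Figure D3:**
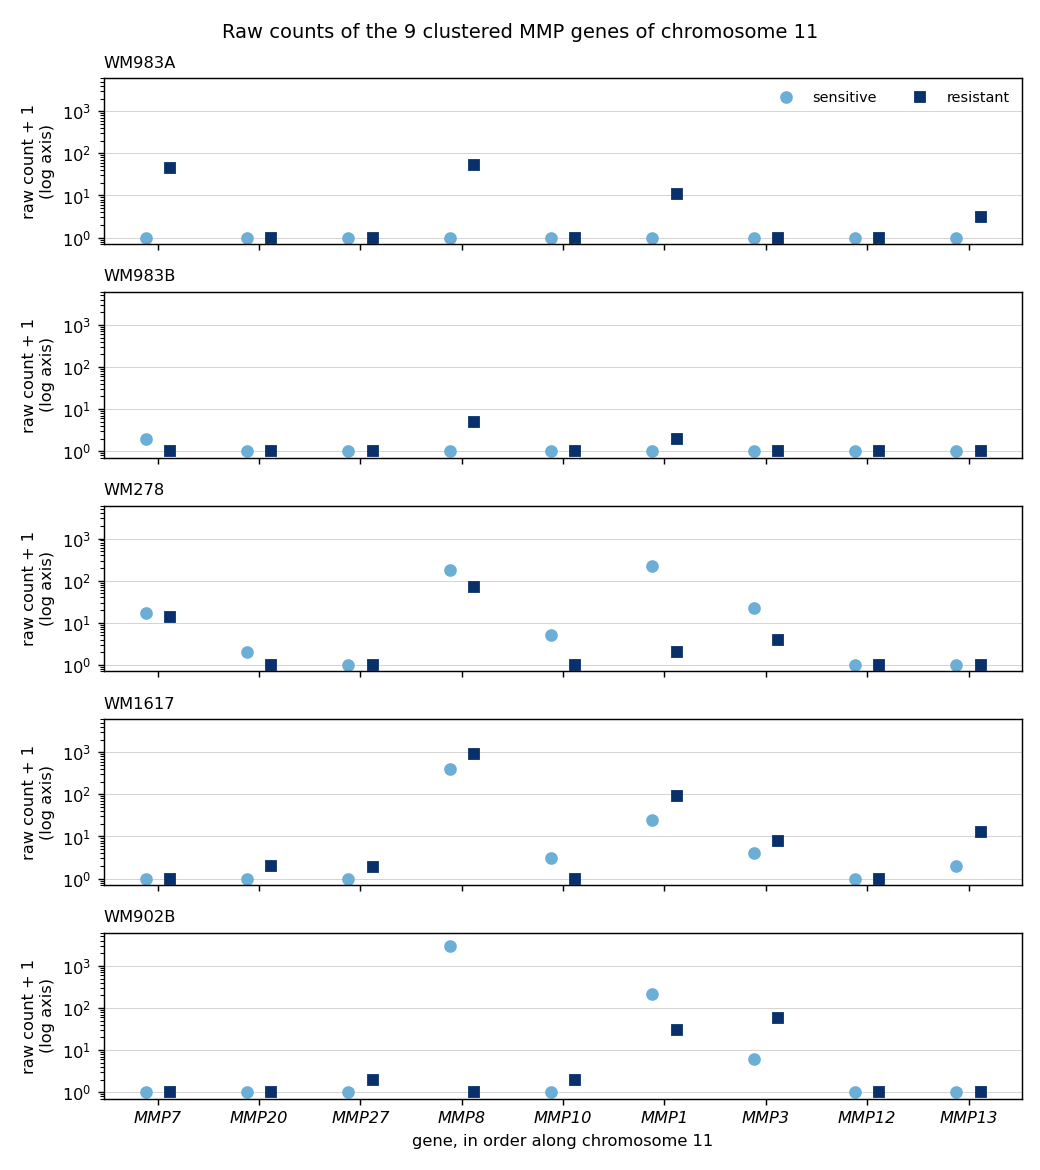
Raw counts plus 1 (log axis) of the 9 MMP genes of the chromosome 11 cluster, in their order along the chromosome, for the sensitive (circles) and resistant (squares) library of each line. MMP8 stands highest in sensitive WM902B (3015.8 counts) and is at 0 in resistant WM902B, and the sensitive WM983A and WM983B libraries hold 0 and 1 count over all 9 genes.

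MMP11, stromelysin 3, was not tested in edgeR because of its low counts, but its resistant libraries all lay above the sensitive ones. It had 2.00, 0.504, 3.34, 5.53 and 1.19 normalized counts in the sensitive and 6.40, 37.4, 11.7, 7.96 and 37.7 in the resistant libraries. Among the described members, MMP11 and MMP24 were the 2 whose groups did not overlap, both being higher with resistance, and 0.447% of 19666 genes with at least 20 counts in any library had this pattern. In 0 members all resistant libraries lay below all sensitive ones (background 0.3%). MMP11 reached 20 counts through resistant libraries alone, so its higher level there is a description without a test. MMP2, MMP11 and MMP24 were the 3 members higher in the resistant library of every line (background 5.79%), and 0 members were lower in every line (background 4.90%).

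Membrane-type MMPs work at the cell surface, and MMP14, or MT1-MMP, which activates pro-MMP2 together with TIMP2, was the most abundant MMP per length in 6 of 10 libraries. Its normalized counts were 10815, 6680, 7936, 5054 and 7493 in the sensitive and 436, 6457, 3061, 5706 and 9876 in the resistant libraries. Resistant WM983A stood far below the others, 24.8-fold under its sensitive line (interval 22.4 to 27.6), and the groups overlapped (log2 fold change -0.57 ± 0.60, edgeR adjusted p = 0.878, and -0.12 without WM983A). MMP16, or MT3-MMP, had 908, 954, 1582, 2341 and 895 normalized counts in the sensitive and 30.8, 221, 359, 2954 and 19.8 in the resistant libraries. Apart from WM1617, each resistant library was below all 5 sensitive ones, and the log2 fold change was -0.90 ± 1.10 (edgeR adjusted p = 0.902) and not called without the block, -2.81 ± 0.94 (adjusted p = 0.462) and called with it, and -2.79 and called without WM1617. MMP16 was lowest in resistant WM902B and WM983A, 45.3-fold (29.1 to 76.4) and 29.5-fold (20.3 to 46.0) under their sensitive lines, and the melanocyte marker sum was also low in both. The sum was low in resistant WM983B as well (2137), where MMP16 had 221. In WM278 the sum was higher in the resistant library, mostly through S100B (1411 to 9512). TYRP1 (3.81 to 36.2), DCT (14.3 to 53.2), MITF (163 to 220) and TYR (8.58 to 8.98) were also higher there. SOX10 (4845 to 4165), PMEL (67.2 to 65.2) and MLANA (11.5 to 6.02) were lower. MMP16 was lower in resistant WM278. The part of these markers was not tested.

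MMP24, or MT5-MMP, an enzyme best known from the nervous system, had a narrow sensitive range of 78.0, 55.0, 83.0, 81.3 and 70.9 normalized counts, and 778, 134, 158, 89.2 and 113 in the resistant libraries. All resistant values lay above all sensitive ones, with WM983A far ahead and WM1617 only just above. The log2 fold change was 1.78 ± 0.60 (edgeR adjusted p = 0.63), and without WM983A it was 0.76, under the 2-fold limit. MMP25, a GPI-anchored enzyme of leukocytes also called leukolysin, had 16.3, 9.37, 12.2, 19.6 and 10.2 normalized counts in the sensitive and 13.4, 35.8, 63.1, 32.8 and 32.9 in the resistant libraries. WM983A was the exception to the higher resistant level, and the log2 fold change of 1.40 ± 0.42 (edgeR adjusted p = 0.63) stayed past the limits with each line left out in turn. MMP25 reached 20 counts through resistant libraries alone. Its higher level there is thus a description, and these fits give it no independent support.

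MMP15 and MMP17, the other membrane-type members, ran in both directions. MMP15 ranged from 410 to 1321 normalized counts in the sensitive and from 94.2 to 2186 in the resistant libraries, and was 8.22-fold lower in resistant WM983B (6.86 to 9.93). MMP17 had 899 to 2317 in the sensitive and 295 to 3624 in the resistant libraries, the highest in WM278. Neither was called (edgeR adjusted p = 0.997 for MMP15, adjusted p = 0.938 for MMP17).

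MMP19, an enzyme of basement membrane proteins, had 31.5, 22.4, 41, 26.6 and 17.6 normalized counts in the sensitive and 19.3, 123, 273, 24.3 and 83.2 in the resistant libraries. It was higher in resistant WM983B, WM278 and WM902B and slightly lower in WM983A and WM1617. The log2 fold change was 1.91 ± 0.69 (edgeR adjusted p = 0.638), and it was 1.78 without WM983B, 1.37 without WM278 and 1.87 without WM902B, none of which was called. MMP23A, annotated as a pseudogene, and MMP23B both lie on chromosome 1. All 943 of the 75-base words of MMP23A also occur in MMP23B, where they are 35.9% of the words. How reads of the shared part were divided between these genes is uncertain. MMP23A and MMP23B reached at most 25.9 and 51.3 normalized counts, both in resistant WM983B.

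Reads of a gene and of a transcript on its other strand cannot be told apart here, since the strand use of the counting is not given in the sources used here, and this touches 3 of the 4 members called higher. MMP25 shares 30.6% of its exon bases with MMP25-AS1, MMP24 18.4% with MMP24-AS1 and MMP19 17.6% with the pseudogene TMEM198B. TMEM198B had 99.4, 63.9, 134, 197 and 59.3 normalized counts in the sensitive and 83.7, 441, 542, 163 and 142 in the resistant libraries, and was itself called higher (log2 fold change 1.31 ± 0.56, edgeR adjusted p = 0.689), a call that it lost with the block (1.11 ± 0.54, adjusted p = 0.493), as MMP19 did. MMP25-AS1 (0.92 ± 0.44, edgeR adjusted p = 0.703) and MMP24-AS1 (0.46 ± 0.29, adjusted p = 0.781) were not called. MMP19 and TMEM198B were higher in the same 3 lines, and the part of the shared bases was not tested.

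ADAMTS14, ADAMTS3 and ADAMTS2 are the procollagen N-propeptidases, which remove the amino propeptide of fibrillar procollagens. ADAMTS14 had 1.57, 15.1, 0, 34.7 and 4.06 normalized counts in the sensitive and 24.5, 477, 4.75, 10.4 and 1136 in the resistant libraries. It was higher with resistance in all lines but WM1617, by 279-fold in WM902B (109 to 1027) and 31.5-fold in WM983B (18.9 to 56.7), and its log2 fold change was 4.88 ± 1.68 (edgeR adjusted p = 0.63). It was 3.32 without WM902B and 3.35 with patient as a block, neither of which was called. The fibroblast marker sum was highest in the same 2 resistant libraries, at 7205 and 4475. In resistant WM902B, PDGFRB (4600) and PDGFRA (1585) held most of it. COL6A3 (700 to 64.8) and FAP (177 to 169) were lower in resistant WM902B, and LUM and DCN in resistant WM983B, while the other listed markers were higher. The part of these markers in this result was not tested.

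ADAMTS3 had the opposite direction, with 120, 97.3, 82.9, 17.4 and 102 normalized counts in the sensitive and 21.8, 64.8, 20, 45.3 and 15.4 in the resistant libraries. The sensitive WM1617 library stood below the other sensitive ones, and WM1617 was the line in which resistance came with a higher level. The log2 fold change was -1.31 ± 0.56 (edgeR adjusted p = 0.686). It was -1.04 without WM983A, -1.17 without WM278 and -1.04 without WM902B, none of them called, and -1.71 without WM1617. ADAMTS2 stayed low, with at most 14.3 normalized counts in the sensitive libraries and 43.3 in resistant WM983B. The called propeptidases thus had opposite directions.

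Proteoglycanases of the ADAMTS family cleave versican and aggrecan, and ADAMTS9 was the most abundant of them per length over all libraries after ADAMTS1. ADAMTS9 had 4842, 340, 1062, 918 and 1534 normalized counts in the sensitive and 118, 78.5, 693, 1182 and 755 in the resistant libraries. It was lower in 4 of 5 resistant libraries, by 41.2-fold in WM983A (33.7 to 50.5), with overlapping groups and a log2 fold change of -1.62 ± 0.84 (edgeR adjusted p = 0.732, not called), which was -2.24 and called without WM1617 but -0.51 and not called without WM983A. The antisense gene ADAMTS9-AS2 had 36.4 normalized counts in sensitive and 0 in resistant WM983A, and ADAMTS9-AS1 42.6 and 0, so all 3 genes of this locus on chromosome 3 were low in that library.

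ADAMTS4, an aggrecanase, was nearly all-or-none between lines. It had 724, 10.1, 6.66, 611 and 19.1 normalized counts in the sensitive and 1.17, 22.9, 0, 727 and 4.86 in the resistant libraries. In WM983A 1 count remained in the resistant library, a ratio of 620 (111 to 24524), whereas WM1617 kept its level, and the group test gave -0.86 ± 1.84 (edgeR adjusted p = 0.953). This value turned to 0.22 without WM983A and was -4.67 and called without WM1617. ADAMTS5, the other main aggrecanase, had 27.8, 21.2, 2.85, 0 and 13.2 normalized counts in the sensitive and 0, 14.8, 22, 0 and 83.4 in the resistant libraries, and was low throughout (log2 fold change 0.88 ± 1.30, edgeR adjusted p = 0.922, and -0.44 without WM902B).

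ADAMTS15, which also cleaves versican and aggrecan, was higher with resistance in all lines but WM983A. Its normalized counts were 78.0, 89.7, 174, 17.4 and 20.3 in the sensitive and 66, 165, 342, 36.6 and 137 in the resistant libraries. The overlap between groups was wide, and the log2 fold change was 0.97 ± 0.74 (edgeR adjusted p = 0.817) and not called without the block and 1.06 ± 0.44 (adjusted p = 0.467) and called with it. ADAMTS1, the first member of the family to be described, had 365 to 2331 in the sensitive and 253 to 4779 in the resistant libraries, 8.04-fold lower in resistant WM983A (6.98 to 9.28) and highest in resistant WM902B.

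ADAMTS10 and ADAMTS6 bind fibrillin microfibrils. ADAMTS10 had 0, 0, 0, 7.60 and 2.03 normalized counts in the sensitive and 485, 3.75, 7.76, 0.871 and 1.82 in the resistant libraries. Only resistant WM983A held more than 20 counts, at least 162-fold above its sensitive line. In that library 4 of the 5 epithelial markers were also at their highest, 3 of them well above the other libraries or its sensitive line, CDH1 (912 normalized counts, against at most 10.0 elsewhere), EPCAM (169, against at most 4.74) and KRT18 (7297, against at most 4420, and 722 in its sensitive line). KRT5 was at 12.3 there, beside 11.5 in resistant WM983B, and KRT14 at 1.17, below its sensitive line, and the part of these markers was not tested. ADAMTS6 ranged from 5.08 to 137 in the sensitive and from 5.55 to 57.3 in the resistant libraries.

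ADAMTS7 and ADAMTS12 cleave cartilage oligomeric matrix protein. ADAMTS12 had 18.3, 6.76, 24.8, 0 and 45.2 normalized counts in the sensitive and 173, 2.86, 0.97, 0 and 341 in the resistant libraries. It was thus higher in resistant WM983A (9.46-fold, 5.87 to 16.6) and WM902B (7.55-fold, 5.57 to 10.7), lower in WM278 and not seen in either WM1617 library (log2 fold change 2.44 ± 1.63, edgeR adjusted p = 0.794, but 0.85 with the block). ADAMTS7 went from 19.3 to 60.6 in the sensitive and from 13.9 to 200 in the resistant libraries and was not called (edgeR adjusted p = 0.723), although it was 7.96-fold higher in resistant WM902B (4.91 to 13.6).

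The remaining ADAMTS genes have varied or less known substrates. ADAMTS16 had 26.7, 14.4, 410, 13.1 and 8.13 normalized counts in the sensitive and 38.8, 2.47, 909, 4.81 and 2.06 in the resistant libraries, with both WM278 libraries far above the rest (log2 fold change 1.02 ± 1.70, edgeR adjusted p = 0.936, and -0.38 without WM278). ADAMTS17 was 50.4-fold lower in resistant WM983A (19.4 to 186) and 7.19-fold lower in resistant WM902B (3.76 to 17.2). ADAMTS18 was nearly confined to WM1617, with 48.4 normalized counts in the sensitive and 30.9 in the resistant library and at most 10.5 elsewhere. ADAMTS13, which cleaves von Willebrand factor, had 2.16 to 54.2 in the sensitive and 15.3 to 45.7 in the resistant libraries.

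TIMPs were the most abundant transcripts of the 3 families per length in every library but resistant WM902B. TIMP1 had 3364, 2335, 2337, 3896 and 3302 normalized counts in the sensitive and 849, 2776, 985, 4951 and 2729 in the resistant libraries. TIMP2, which both inhibits MMP2 and helps MMP14 to activate it, had 15507, 4272, 9142, 3060 and 4075 in the sensitive and 3529, 5387, 13859, 3229 and 8826 in the resistant libraries. TIMP3, the matrix-bound inhibitor, had 26151, 11757, 44479, 2962 and 27031 in the sensitive and 527, 28857, 25387, 4782 and 201 in the resistant libraries. None of the 3 was called (edgeR log2 fold changes -0.31 ± 0.45, -0.05 ± 0.54 and -0.91 ± 1.15, the lowest with adjusted p = 0.905), and TIMP2 turned to 0.61 without WM983A. TIMP1 was -0.57 with the block and -0.05 without WM983A, and TIMP3 was -1.80 with the block and -0.50 without WM902B, again not called.

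TIMP3 was nonetheless the member with the largest loss in absolute counts. It was 135-fold lower in resistant WM902B (117 to 156) and 49.7-fold lower in resistant WM983A (45.2 to 54.6), while it was 2.45-fold higher in resistant WM983B (2.40 to 2.51) and 1.61-fold higher in WM1617 (1.54 to 1.69). SYN3, within whose gene TIMP3 lies, was low in the same 2 libraries, with 107 normalized counts in sensitive and 2.34 in resistant WM983A, and 26.5 and 0 in WM902B. With 1 library per line and state, the intervals hold for counting error alone. A lower level in such a bulk library can mean fewer cells with the transcript or less of it per cell, which cannot be told apart.

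Levels were compared between genes per kb of annotated exon. TIMPs made up 64.2% to 79.6% of the summed level of the described members in the sensitive libraries, MMPs 18.2% to 31.7% and ADAMTS genes 2.12% to 5.98%. TIMP3 was the highest member in 4 of 5 sensitive libraries and TIMP1 in WM1617. In the resistant libraries TIMPs made up 59.1%, 68.0%, 71.4% and 64.1% in the first 4 lines, but 34.8% in WM902B.

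The ratio of summed TIMP to summed MMP level, per kb, was 3.11, 2.27, 4.36, 2.02 and 2.07 in the sensitive and 1.82, 2.26, 2.97, 1.99 and 0.639 in the resistant libraries. Each resistant library thus had a lower ratio than its sensitive line, although in WM983B and WM1617 by very little. Resistant WM902B was the single library with more MMP than TIMP transcript per length, and MMP2 alone held 30.1% of its level, against 6.94% in sensitive WM902B, while TIMP3 went from 43.9% to 0.454%. In WM983A the summed TIMP level was 10502 per kb in the sensitive and 1268 in the resistant library, and the summed MMP level 3371 and 698, so that both were low there.

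**Figure D4:**
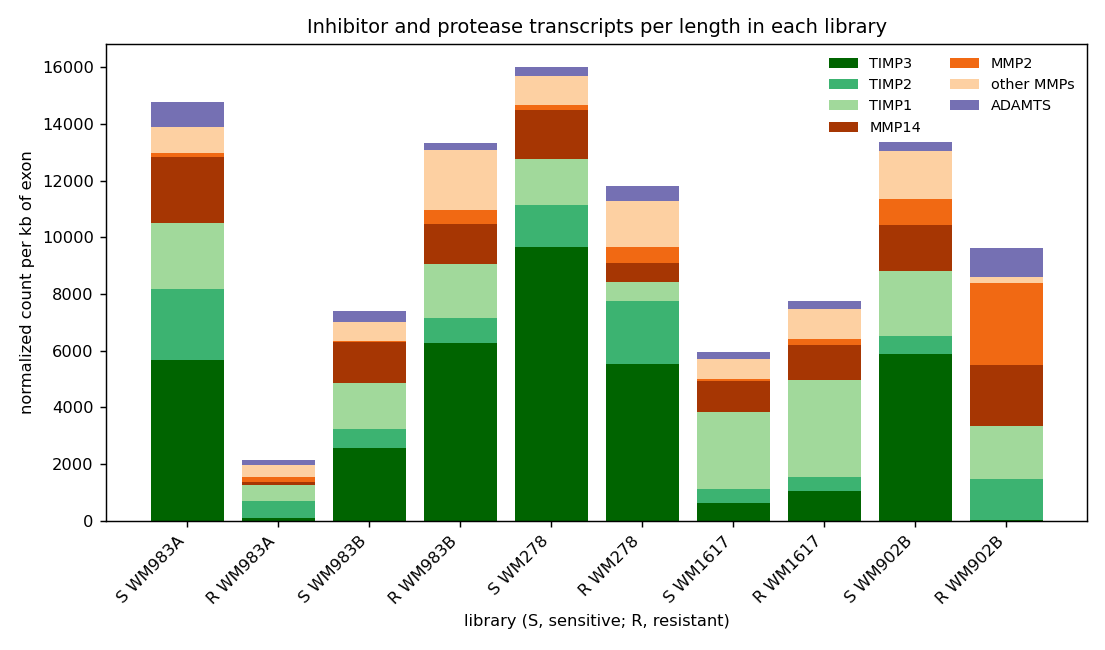
Summed level of the described members in each library, in normalized counts per kb of exon, stacked by TIMP3, TIMP2, TIMP1, MMP14, MMP2, the other MMPs and the ADAMTS genes, for sensitive (S) and resistant (R) libraries. The green TIMP part is the larger share in every library but resistant WM902B, where it is 34.8%, and resistant WM983A has the lowest bar.

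Within single lines, the members differed widely between the states and in different directions. Each of the 35 described members differed at least 2-fold between the states in at least 1 line, against 64.0% of 19666 genes, and 21 of them (60%) were at least 2-fold higher in 1 line and lower in another, against 18.2% of all genes. In WM983A 8 members were at least 2-fold higher and 17 lower, against 20.3% and 20.6% of all genes. WM983B had 16 members higher and 8 lower (19.2% and 11.9% of all genes), and WM278 had 15 and 11 (14.4% and 8.18%). For WM1617 the numbers were 5 and 5 (3.66% and 5.92%), and WM902B had 14 higher and 13 lower (17.9% and 13.5%). With 1 library per state these are sizes without a test, and many members are low, so that few counts can make 2-fold.

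WM1617 thus had the fewest large differences, as it had among all genes, and WM983A was the 1 line with more members lower than higher by 2-fold. Over the members, the median log2 ratio was -0.88, 0.87, 0.90, 0.17 and 0.11 in the usual order of the lines, where the median over all genes was between 0.00 and 0.04. WM983A and WM983B, from 1 patient, therefore had opposite medians. At the 2-fold limit, 9 of 16 ADAMTS genes were lower in WM983A (20.6% of all genes) and 9 of 16 MMP genes higher in WM983B (19.2% of all genes). Among these 9 MMP genes, MMP8 had 4 counts against 0. MMP11, MMP23A, MMP23B and MMP25 reached 20 counts through resistant libraries alone. MMP23A is annotated as a pseudogene, and all its 75-base words also occur in MMP23B. The number of MMP genes is thus a description without a test.

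**Figure D5:**
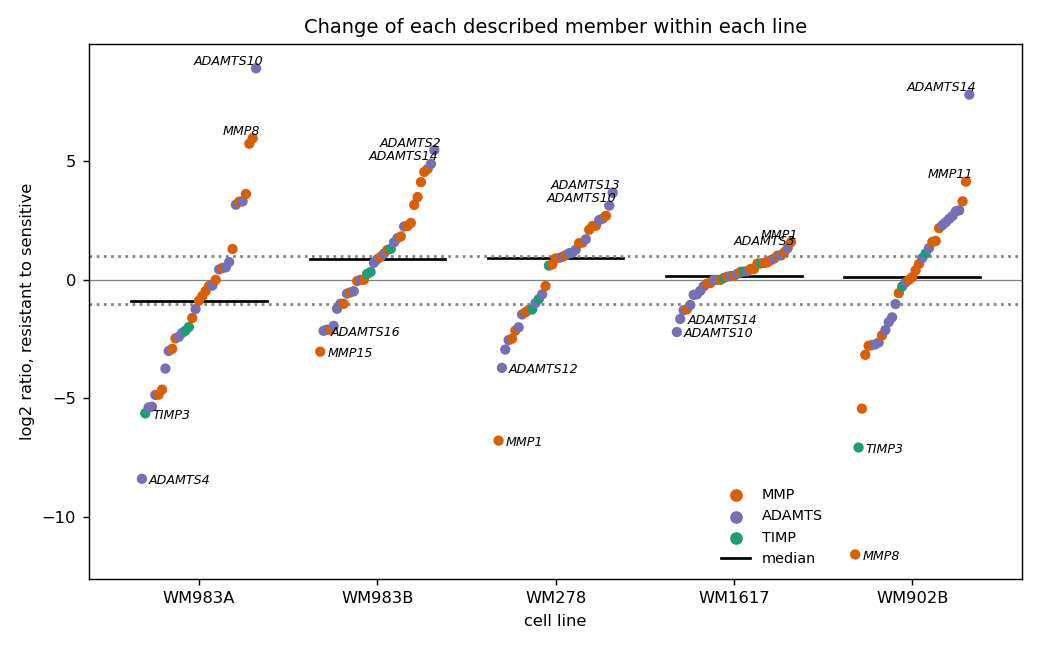
Log2 ratio of resistant to sensitive level for each of the 35 described members in each line, sorted within the line and coloured by family, with the 2 lowest and 2 highest named, the median as a black bar and 2-fold as dotted lines. Medians lie at -0.88 in WM983A and 0.87 in WM983B, and WM1617 has 25 of 35 members inside the dotted lines.

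Whether the effect of resistance differed between lines from primary and from metastatic tumours was tested as an interaction in edgeR. With adjustment over all genes 0 members passed, and 1 of the tested members, ADAMTS3, had an unadjusted interaction p under 0.05 (adjusted p = 1 in edgeR), as did 0.96% of all genes. By sign alone, 3 members were lower in every primary and higher in every metastatic line (background 2.08%), TIMP1, TIMP3 and ADAMTS4, and 0 had the reverse pattern (background 2.16%). Each stage holds only 3 or 2 lines, and 4 of the 5 are pairs from the same patients.

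Genes that work with these proteases were counted from lists of 40 genes in all, of which 29 were tested. ADAM proteases, membrane-bound relatives that shed cell surface proteins, had 7 tested members and 1 called higher, ADAM8, with 9.96 to 19.1 normalized counts in the sensitive and 20 to 104 in the resistant libraries (log2 fold change 1.70 ± 0.49, edgeR adjusted p = 0.63). ADAMTS-like proteins, which lack the protease domain, had 3 tested members and 1 called higher, ADAMTSL4, a microfibril protein, with 0 to 32.0 in the sensitive and 4.14 to 641 in the resistant libraries (3.59 ± 1.27, adjusted p = 0.632 in edgeR). Both genes were higher in all 5 lines. With the block PAPLN was called as well.

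Among 10 activators, inhibitors and receptors of metalloproteinases, 9 were tested and 0 called by edgeR, and the block called A2M, the plasma protease inhibitor alpha-2-macroglobulin, and PCSK6, a proprotein convertase, higher. RECK, a membrane-anchored MMP inhibitor, was at 124 to 266 normalized counts in the sensitive and 169 to 334 in the resistant libraries, higher in all 5 lines but not called (log2 fold change 0.60 ± 0.32, edgeR adjusted p = 0.738). BSG, which induces MMPs in neighbouring cells (0.43 ± 0.23, adjusted p = 0.732), LRP1, the endocytic receptor that clears MMPs and ADAMTS proteases (0.94 ± 0.56, adjusted p = 0.766), and FURIN, the convertase that activates membrane-type MMPs (-0.79 ± 0.43, adjusted p = 0.743), did not pass in edgeR either.

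Of 15 matrix substrates 10 were tested, with 1 called higher and 1 lower. VCAN, the proteoglycan versican, had 719 to 1772 normalized counts in the sensitive and 492 to 6516 in the resistant libraries (log2 fold change 1.58 ± 0.56, edgeR adjusted p = 0.632, not called with the block at adjusted p = 0.504). TNC, the matrix glycoprotein tenascin-C, had 4417 to 36264 in the sensitive and 337 to 11211 in the resistant libraries (-2.42 ± 0.94, edgeR adjusted p = 0.669, and -3.50 ± 1.23 with the block, adjusted p = 0.462). FBN2, fibrillin-2, was called lower with the block only (-2.51 ± 0.89, edgeR adjusted p = 0.462). Of the 29 tested, 3 were thus called higher (background 3.53%) and 1 lower (0.885%), and with the block 5 higher (3.48%) and 2 lower (2.05%). Without WM983B or without WM902B 1 gene was called, and without WM1617 7.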

How the data were processed

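The authors prepared oligo-dT libraries, sequenced them as single-end 75-cycle reads, aligned them with HISAT2 to GRCh38 and quantified them in StrandNGS, and deposited for each gene an expected count, which can be fractional, and a log2 value normalized with DESeq as a ratio to the sensitive line. Tool versions, gene annotation and strand use are not given in the sources used here. Of the expected counts above 0, 24.1% were whole. In the sensitive WM983B file 455 counts had become dates. All 455 were recovered from the deposited log2 values and none belongs to a member. Counts were rounded, filtered with filterByExpr, scaled by TMM and tested two-sided with edgeR 4.0.16 (glmQLFit, glmQLFTest), 5 against 5 libraries, in R 4.3.3. DESeq2 1.42.0, the cell line block, a patient block, an exact permutation of mean log2 levels and lines left out in turn were alternatives. The steps were tested on simulated data. Pairing comes from the design, each resistant line being derived from its sensitive namesake. Correlations of deviations from the group means were -0.06, 0.54, 0.68, 0.67 and 0.38 over the 5 lines. Log2 ratios within a line, and the numbers at the 2-fold limit taken from them, used normalized counts plus 1. Folds within a line were ratios of scaled counts with nothing added, or bounds against 3 counts where the lower count rounded to 0. The 95% intervals of these folds are exact binomial (Clopper-Pearson), for counting error only. Positions and exon lengths (all annotated exons merged) are from GENCODE 44. Full values are given for members called in either fit, the 12 of widest range, and MMP1, MMP2, MMP8, MMP14, ADAMTS9 and TIMP1 to TIMP3. Of related genes, those called and LRP1, RECK, BSG, FURIN and VCAN are named. Members and lists were chosen with earlier results of these data known. The rest was done in Python 3.11.15 (pandas 2.3.3, numpy 2.4.6, matplotlib 3.10.9, scipy 1.17.1).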

Additional observations from a re-analysis of the deposited data

Results flagged for a closer look

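Within the 5 libraries of a state, 6 of 63 sets of values had 1 library further from the rest than Dixon's limit of 0.71 allows. ADAMTS10 reached 20 counts through resistant WM983A alone and ADAMTS18 through the WM1617 libraries alone. The usual rate of about 1 in 20 does not hold for sets chosen this way, so the number is a description without a test. Of the 6, 3 were in resistant WM983A, the library that stood apart across genes: ADAMTS10 at 485 normalized counts (others 0.871 to 7.76), MMP24 at 778 (others 89.2 to 158) and ADAMTS13 at 15.3 (others 39.3 to 45.7). MMP9 in resistant WM983B stood at 4128, with the others at 2.57 to 11.5. In WM1617, ADAMTS18 was at 30.9 in the resistant library (others 0 to 0.97) and ADAMTS3 at 17.4 in the sensitive one (others 82.9 to 120).

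For 3 members every primary line was lower and every metastatic line higher with resistance, as for 2.08% of all genes. The mean log2 ratio in metastatic lines was above that in primary lines by 5.49 for TIMP3 (0.99 against -4.50), by 5.05 for ADAMTS4 (0.68 against -4.37) and by 1.47 for TIMP1 (0.30 against -1.17). The interaction term in edgeR did not pass for any of the 3 (adjusted p = 1 for each).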

How the results depend on the processing

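With 1 library per line and state, every call rests on the spread between 5 lines of 3 patients. The number of members called lower, 1 in the edgeR fit reported, was 2 with DESeq2's Wald test (ADAMTS3 and ADAMTS9), 0 with patient as a block, 0 without the resistant WM983A library and 0 to 4 with each line left out, being 0 without WM983A, WM278 or WM902B and 4 without WM1617. Without WM1617, 5.73% of all genes were called higher and 2.84% lower. The number called higher, 4, was 3 to 6 with each line left out and 1 (ADAMTS14) without members sharing at least 10% of their exon bases with a gene on the other strand, an alternative chosen after seeing the data. Members past an adjusted p of 0.05 numbered 1 with DESeq2, where 0.631% of all genes passed, and 0 under every other setting run. With the replicate block, from the pairing by cell line, 5 members were called higher and 1 lower. Related genes called, 4, were 7 with the block, 2 with patient as a block, and 1 (without WM983B or WM902B) to 7 (without WM1617) with each line left out. Members at least 2-fold lower in WM1617, 5, were 2 with 5 added to the counts and 3 among members with at least 50 counts. DESeq2 gave no p for MMP24 and so did not call it, and called ADAMTS7 (1.45) higher, which left the number at 4. In the exact permutation, the unadjusted p was over 0.05 for ADAMTS14 (0.111), MMP19 (0.135) and ADAMTS3 (0.0714). For MMP24 (0.00794) and MMP25 (0.0238) the unadjusted permutation p was under 0.05, with an adjusted p of 0.78 for each.

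Among the 20 members run under every setting that gave a value, log2 fold changes of uncalled ones turned sign for ADAMTS16 (1.02, but -0.49 with the block and -0.67 in the exact permutation, and -0.38 without WM278 to 1.28 with a line or library left out), ADAMTS4 (0.22 without WM983A to -4.67 without WM1617), ADAMTS5 (-0.04 in the exact permutation, and -0.44 without WM902B to 1.68), MMP8 (0.01 with the block, 1.11 with patient as a block, and 0.60 without WM902B to -4.58 without WM1617) and TIMP2 (0.06 with the block, 0.61 without WM983A, 0.12 without the resistant WM983A library, and down to -0.35). Of the 7 tested members run only with the block, the patient block and DESeq2, ADAMTS1 turned (0.23, but -0.23 with the block and -0.09 with patient as a block). The cause was not tested.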
